A study of Mus musculus with 4 samples.

Results

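The 8 genes described here control the entry of a cell into S phase. They are the D-type cyclins Ccnd1, Ccnd2 and Ccnd3, the E-type cyclins Ccne1 and Ccne2, and the inhibitors Cdkn1a, Cdkn1b and Cdkn2c, which encode p21, p27 and p18. They were chosen by name, as 8 of the 19321 genes in the deposited table, and all 8 are in it. Each was followed in 4 cell classes of the fetal mouse ovary and over 4 stages.

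D-type cyclins bind CDK4 and CDK6 and start the phosphorylation of the retinoblastoma protein, which releases E2F factors. E-type cyclins bind CDK2 and act at the start of S phase. p21 and p27 bind cyclin and CDK complexes, chiefly those of CDK2, while p18 is an INK4 protein that binds CDK4 and CDK6 alone. Over the days sampled, germ cells of the XX gonad stop mitosis and enter meiosis, and the supporting cells around them, the precursors of granulosa cells, are known for high p27 and for leaving the cell cycle.

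Single cells were profiled from gonads of XX C57BL/6 mouse embryos on 4 successive days, E11.5 through E14.5, with a droplet kit that counts the 3′ ends of transcripts by unique molecular identifiers (UMIs). No treatment, transgene or mutation is named for any stage. Each stage is 1 library, so stage and library cannot be told apart, there is no test, and nothing in the labels says how many embryos were pooled. The 4 libraries hold 4787 to 4916 cell barcodes each, with a median of 11361 to 14258 UMIs per cell, and 175 barcode sequences occur in more than 1 library.

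Germ cells were those with UMIs of at least 3 of Dazl, Ddx4, Dnd1, Mael, Dppa5a and Mov10l1, and supporting cells those with at least 3 of Fst, Wnt4, Wnt6, Irx3 and Runx1. Surface epithelium had Upk3b with Krt19 or Krt7, and interstitial cells had Col1a1 with Tcf21. In stage order there were 233, 609, 720 and 2279 germ cells, 2115, 2128, 1742 and 669 supporting cells, 603, 562, 391 and 344 surface epithelial cells, and 294, 209, 596 and 204 interstitial cells. Cells that met several rules, 3.48% to 11.3% of a library, were left out. This took more of the somatic classes in the later libraries: of the cells that met the rule of the surface epithelium, 603 of 750 were kept at E11.5 against 344 of 734 in the last library, and for supporting cells 2115 of 2214 against 669 of 1121. The somatic values at E14.5 thus come from a more selected set of cells. Germ cells were the deepest class, with medians of 31081, 27485, 24751.5 and 15364 UMIs in stage order. With class markers read at 5000 UMIs per cell, germ cells numbered 73, 393, 606 and 2184, so the E11.5 set of germ cells depended most on depth. Of markers that the rules did not use, Sycp1 was at 444 CPM (UMIs of the gene per 1000000 UMIs of the class) in germ cells at E14.5 against 4.29 to 5.32 CPM in the other classes. The check of germ cells was weaker at E11.5, where Sycp1 was at 4.81 CPM in them. Sycp1, Gtsf1, Asz1 and Hormad1 together were at 34.3 CPM in germ cells of that library and at most 0.874 CPM in the other classes. The supporting-cell marker Gng13 was at 37.4 CPM in the same germ cells. Kitl was at 239 to 420 CPM in supporting cells and at most 145 CPM elsewhere. The whole set of Foxl2, Kitl, Amhr2 and Gng13 set surface epithelium less apart. It summed to 735 to 1753 CPM in supporting cells and 299 to 874 CPM in surface epithelium. In germ cells the sum was 43.6 to 68.8 CPM and in interstitial cells 53.8 to 101 CPM. Aldh1a2 was highest in surface epithelium (173 to 196 CPM) and Nr2f2 in interstitial cells (316 to 381 CPM). The check had gaps: Foxl2, the defining factor of granulosa precursors, was at only 0.127 to 0.329 CPM in supporting cells, with a UMI in 4, 4, 7 and 1 of the cells, too few to split them by it, and the mesothelial gene Msln was at 0 to 2.15 CPM in surface epithelium. Whether the annotation or counting behind the table lowered the Foxl2 values was not tested, so they say little of the cells.

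Each level is the summed UMIs of all cells that a class had in 1 library, as CPM, with exact Poisson 95% intervals. All intervals cover counting error only, not differences between embryos or libraries. A change of size was called where both libraries held at least 50 UMIs together, the higher level was at least 20 CPM, the ratio was at least 2 and the Poisson intervals did not overlap. The words rose and fell are kept for changes between E11.5 and E14.5 that meet this rule.

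Ccnd1, which in many tissues answers mitogens, rose in germ cells from almost nothing to the highest level of the 4 classes. The gene lies at chr7:144929931-144939925 on the minus strand (GRCm38, GENCODE M21). Its level in germ cells was 2.54 CPM (interval 1.53 to 3.96), then 5.66, 29.0 and finally 112 CPM (109 to 116) in stage order. No 2 of these intervals overlap, and the log2 ratio of E14.5 to E11.5 was 5.47 (4.82 to 6.20), or 44.3-fold. The germ cells stood last among the 4 classes at E11.5 and E12.5 and first at E14.5. In surface epithelium Ccnd1 was at 61.0, 61.1, 38.7 and 48.3 CPM in stage order. Supporting cells held 14, 21.8, 18.5 and 19.1 CPM. In interstitial cells it fell, with levels of 31.7, 41.0, 26.6 and 15.4 CPM and a log2 ratio of -1.05 (-1.63 to -0.49). The fall in interstitial cells lost its call in 4 of the 6 other ways of summing the cells: it was -0.60 with cells of several classes kept, -0.34 with class markers read at 5000 UMIs per cell, -0.88 as a mean over cells and -0.95 with median-of-ratios scaling. The rise in germ cells kept its call in all 6, with log2 ratios of 4.76 to 5.54. The gene on the opposite strand that overlaps Ccnd1, listed as Oraov1 (an older name of LTO1), was at 8.14, 4.98, 6.51 and 10.1 CPM in germ cells.

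**Figure D1:**
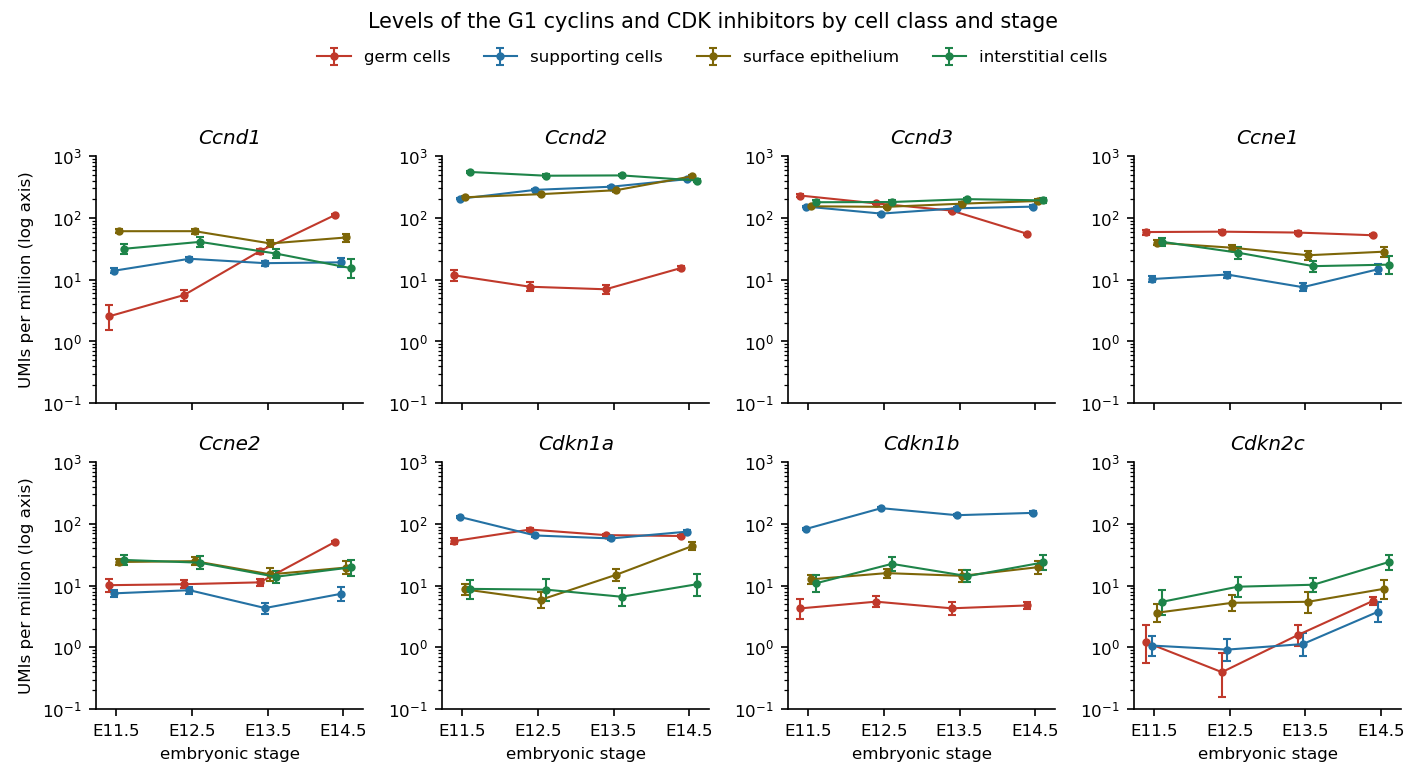
Level of each gene in CPM (log axis) against stage, with 1 line per cell class and bars for exact Poisson 95% intervals. Ccnd1 in germ cells climbs from 2.54 to 112 CPM while Ccnd3 there goes from 230 to 55.4 CPM, and Cdkn1b in supporting cells lies above every other class at all 4 stages.

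Ccnd3 moved the opposite way in the same germ cells. It lies at chr17:47505051-47599691 on the plus strand. Its level in germ cells was 230, 172, 132 and 55.4 CPM in stage order, and the 4 intervals do not overlap. It fell by 2.06 on the log2 scale (ratio interval -2.15 to -1.96), and over 6 alternatives the log2 ratio stayed between -2.46 and -2.01. Its last step, after E13.5, was -1.25 (-1.33 to -1.16). The somatic classes held Ccnd3 within 118 to 202 CPM at every stage, and their log2 ratios of E14.5 to E11.5 were -0.01 in supporting cells, 0.29 in surface epithelium and 0.10 in interstitial cells. Ccnd3 overlaps Bysl, a ribosome biogenesis gene on the opposite strand, which was at 59.1, 43.9, 31.2 and 22 CPM in germ cells. Bysl thus moved in the same direction as Ccnd3 there, with a log2 ratio of -1.42 (-1.59 to -1.26). Its part in the Ccnd3 counts was not tested. Whether the counting used the strand is not given in the sources used here, so reads of such pairs may not have been told apart.

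With Ccnd1 and Ccnd3 moving in opposite directions, the make-up of the D-type cyclin UMIs of germ cells turned over. The sum of the 3 genes was 245, 186, 168 and 183 CPM in stage order. Ccnd3 made up 94.2%, 92.8%, 78.5% and 30.2% (exact binomial interval of the last 29.1 to 31.3) of it. Ccnd1 made up 1.04%, 3.05%, 17.3% and 61.3% (60.2 to 62.5). In the somatic classes Ccnd2 held the largest share at every stage, between 50.1% and 72.4%. These shares count transcript ends, which are not divided by length, and take the capture of the 3 transcripts as equal.

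**Figure D2:**
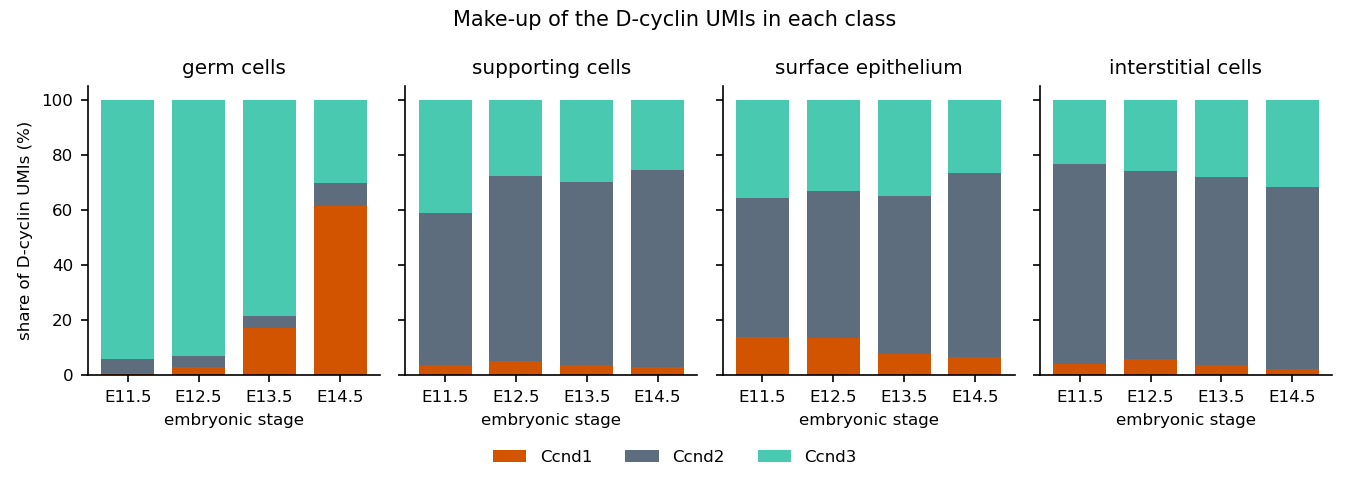
Share of D-type cyclin UMIs (%, stacked to 100) that came from Ccnd1, Ccnd2 and Ccnd3, by class and stage. In germ cells Ccnd3 goes from 94.2% to 30.2% and Ccnd1 reaches 61.3%, while Ccnd2 is the largest part in the other 3 classes.

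Ccnd2, the D-type cyclin that ovarian granulosa cells depend on for growth later in life, was a somatic gene here. It lies at chr6:127125162-127152193 on the minus strand. Supporting cells held 204, 285, 320 and 424 CPM in stage order. Surface epithelium held 216, 243, 282 and 472 CPM. Interstitial cells began highest, at 555 CPM, and then held 483, 489 and 403 CPM. The level rose in supporting cells (log2 ratio 1.05, 0.99 to 1.11) and in surface epithelium (1.13, 1.03 to 1.22), and the 3 somatic classes lay within 403 to 472 CPM at E14.5. Both calls sit near the limit of 2-fold. In supporting cells the ratio was 0.97 among cells with at least 10000 UMIs and 0.90 with median-of-ratios scaling, and in surface epithelium it was 0.95 among those deep cells.

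Germ cells held only 11.7, 7.69, 7 and 15.5 CPM of Ccnd2. That is 5.75%, 2.70%, 2.18% and 3.66% of the level in supporting cells of the same library. RNA set free by broken cells reaches all droplets, and Kitl, a ligand of supporting cells, was in germ cells at 1.17% to 1.37% of its supporting-cell level, with Amhr2 at 1.32% to 1.62% and Gata4 at 1.98% to 2.34%. The Ccnd2 ratio lay above these 3 genes at every stage, by least at E13.5. Another supporting-cell marker, Gng13, was in germ cells at 29.6%, 7.45%, 7% and 5.50% of its supporting-cell level, above Ccnd2 at each stage. Set against interstitial cells, the germ cell level was 2.12%, 1.59%, 1.43% and 3.85%, and the interstitial markers Pdgfra, Nr2f2, Dcn and Mgp were at 0.570% to 1.77%. How much of the Ccnd2 in germ cells was free RNA was not tested.

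The E-type cyclins differed from each other in germ cells. Ccne1, at chr7:38097984-38107534 on the minus strand, kept to 59.1, 60.0, 58.0 and 52.5 CPM there in stage order, a log2 ratio of -0.17 (-0.32 to -0.02) from E11.5 to E14.5. It was higher in germ cells than in the other classes at every stage. Supporting cells held the least, at 10.2, 12.1, 7.57 and 14.8 CPM. Surface epithelium held 39.7, 32.9, 24.9 and 28.4 CPM. In interstitial cells it fell from 41.1 to 17.5 CPM, by way of 27.4 and 16.6, a log2 ratio of -1.23 (-1.77 to -0.72). That fall was -0.97 and not called when cells of several classes were kept.

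Ccne2, at chr4:11191351-11204779 on the plus strand, was low in germ cells through E13.5 and then rose in the last library. The levels were 10.1, 10.5, 11.3 and 51.3 CPM (49.0 to 53.6), and the first 3 intervals overlap. The log2 ratio of E14.5 to E11.5 was 2.34 (2.01 to 2.69), and 2.19 (1.98 to 2.40) came from the step after E13.5. Its share of the E-type cyclin UMIs of germ cells went from 16.3% to 49.4% over the last step. In supporting cells it was at 4.33 to 8.42 CPM, in surface epithelium at 15.2 to 24.8 CPM and in interstitial cells at 13.9 to 26.0 CPM, with no call in any of the 3. Ccne2 overlaps Ints8, an Integrator subunit gene on the opposite strand, and Ints8 moved in the same direction in germ cells, with 13.6, 20.1, 24.8 and 50.7 CPM and a log2 ratio of 1.90 (1.61 to 2.2). Between E11.5 and E13.5, while Ints8 went from 13.6 to 24.8 CPM, Ccne2 stayed at 10.1 to 11.3 CPM. Its part in the Ccne2 counts was not tested.

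Cdkn1b, whose product p27 holds cells out of the cycle, marked the supporting cells. It lies at chr6:134920401-134925513 on the plus strand. Supporting cells held 82.3 (79.1 to 85.5), 179 (174 to 184), 138 (133 to 143) and 150 CPM (142 to 159) in stage order. The other classes lay far below at every stage: surface epithelium at 12.6 to 19.8 CPM, interstitial cells at 10.9 to 23.7 CPM and germ cells at 4.27 to 5.49 CPM. The first step in supporting cells was 1.12 on the log2 scale (1.05 to 1.19). From E11.5 to E14.5 the ratio was 0.87 (0.77 to 0.97), under the 2-fold limit, and it reached 1.02 and a call among cells with at least 10000 UMIs. In interstitial cells Cdkn1b rose from 10.9 to 23.7 CPM (1.12, 0.51 to 1.73), a call that was lost at 0.88 with class markers read at 5000 UMIs and at 0.79 among the deep cells. The germ cell level was 3.06% to 5.19% of that in supporting cells, above the 1.17% to 2.34% of Kitl, Amhr2 and Gata4 and below the 5.50% to 29.6% of Gng13. The intervals of the Cdkn1b and Gata4 percentages overlap at E12.5, E13.5 and E14.5.

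Across the 16 sums of class and stage, Ccne1 and Cdkn1b had the strongest relation of any pair of the 8 genes (Pearson r of log2(CPM + 1) = -0.91). The 16 sums share 4 libraries and are not independent, so this r is a description, and it lies between the classes: within supporting cells both genes went up, down and up over the 3 steps, and in germ cells both moved little. The promoters of the pair are printed here because the classes highest in one were lowest in the other: the 250 bases before the RefSeq start (GRCm38.p6), 5′ to 3′ on the strand of the gene, with GC boxes (GGGCGG on either strand) in capitals. RefSeq promoters were found for 5 of the 8 genes, Ccnd3, Ccne1, Cdkn1a, Cdkn1b and Cdkn2c, and not for Ccnd1, Ccnd2 and Ccne2.
Ccne1 promoter, chr7:38107491-38107740, minus strand: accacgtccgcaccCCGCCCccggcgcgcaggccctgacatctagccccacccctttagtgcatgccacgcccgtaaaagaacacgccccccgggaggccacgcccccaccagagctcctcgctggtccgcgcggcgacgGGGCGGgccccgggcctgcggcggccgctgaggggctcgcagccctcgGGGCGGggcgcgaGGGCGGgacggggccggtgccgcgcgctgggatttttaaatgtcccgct
Cdkn1b promoter, chr6:134920151-134920400, plus strand: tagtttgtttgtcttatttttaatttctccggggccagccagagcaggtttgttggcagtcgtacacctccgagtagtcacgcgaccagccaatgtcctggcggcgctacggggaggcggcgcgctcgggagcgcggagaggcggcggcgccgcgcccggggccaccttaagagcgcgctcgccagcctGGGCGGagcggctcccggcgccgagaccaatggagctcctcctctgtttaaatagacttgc

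The Ccne1 window holds 4 GC boxes and no CCAAT box, and the Cdkn1b window holds 1 GC box and 2 CCAAT boxes (CCAAT). Of 32851 promoters of the same length, 32.7% hold a GC box and 33.8% a CCAAT box on either strand. None of the 8 promoter entries of the 5 genes holds an E2F octamer (TTTCGCGC, TTTGGCGC, TTTCCCGC or TTTGCCGC), which 1.86% of all promoters hold. The forkhead letters TGTTTAC, searched because FOXO factors are known to act on Cdkn1b, are in 3.17% of promoters and, among these entries, in 1 of the 2 Ccnd3 starts only. These matches are letters in a window and say nothing of binding.

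Cdkn1a, the p53 target that encodes p21, was shared by germ cells and supporting cells. It lies at chr17:29090976-29100727 on the plus strand. Germ cells held 52.6, 80.8, 65.6 and 63.5 CPM in stage order. Their log2 ratio of E14.5 to E11.5 was 0.27 (0.12 to 0.43) and turned to -0.13 with median-of-ratios scaling, so no direction is given. Supporting cells held 129, 64.7, 58.0 and 74.5 CPM, with the E11.5 library alone above 100. Their log2 ratio was -0.80 (-0.92 to -0.67), not a call, and became -1.08 and a call with class markers read at 5000 UMIs. At E11.5 the supporting cells also held steroidogenic markers (Star, Cyp11a1 and Cyp17a1), whose sum was 64.0 CPM against 9.40 to 13.2 CPM later. Cyp11a1 made up 58.4 CPM of it and was at 1.65 CPM at E14.5. The part of those cells in the Cdkn1a level was not tested.

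Surface epithelium gained Cdkn1a late. Its levels were 8.67, 5.88, 15.0 and 43.4 CPM (37.0 to 50.7), so it rose with a log2 ratio of 2.32 (1.94 to 2.72), and 1.54 (1.13 to 1.95) of that lay after E13.5. Over 6 alternatives the ratio was 1.83 to 2.57. Erythroid genes, whose RNA is commonly free in such samples, were at 5415 CPM in sum in surface epithelium at E14.5 against 633 CPM at E11.5, with 3 of 3 higher, and in supporting cells at 5449 against 390 CPM. The sum of the 4 supporting-cell markers in surface epithelium was 299 CPM in the first library and 874 CPM in the last, with 2 of 4 higher, Gng13 (9.58 and 508 CPM) and Kitl (39.3 and 145 CPM). Their part in the Cdkn1a level of surface epithelium was not tested. Interstitial cells stayed at 6.60 to 10.5 CPM of Cdkn1a.

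Cdkn2c had the lowest median of the 8 genes, 4.53 CPM over all 16 sums, within a range of 0.396 to 24.1 CPM. It lies at chr4:109660876-109667189 on the minus strand. Interstitial cells held 5.46, 9.59, 10.3 and 24.1 CPM (18.2 to 31.4), and it rose there with a log2 ratio of 2.14 (1.39 to 2.94). This call was lost when cells of several classes were kept (1.80) and when class markers were read at 5000 UMIs (1.86). In surface epithelium it was at 3.63, 5.26, 5.47 and 8.85 CPM. In germ cells it was at 1.2, 0.396, 1.57 and 5.66 CPM and in supporting cells at 1.07, 0.919, 1.13 and 3.80 CPM, below the 20 CPM that a call needed. E14.5 had the highest level in each of the 4 classes.

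In germ cells 5 of the 8 genes reached the minimums for a call between E11.5 and E14.5, of which 2 rose (Ccnd1 and Ccne2) and 1 fell (Ccnd3). Among all 5724 genes that reached them in germ cells, 22.7% were called higher and 8.49% lower, so calls were frequent there. In supporting cells 4 members reached the minimums and 1 rose (Ccnd2), where 6.17% of all genes were called higher and 3.46% lower. In surface epithelium 6 reached them and 2 rose (Ccnd2 and Cdkn1a), against 5.08% higher and 1.86% lower among all genes. In interstitial cells 7 reached them, 2 rose (Cdkn1b and Cdkn2c) and 2 fell (Ccnd1 and Ccne1), against 3.82% and 3.52%. The median log2 ratio of the 8 members was 0.34 in germ cells, 0.49 in supporting cells, 0.47 in surface epithelium and -0.15 in interstitial cells. Over all genes tested it was 0.29, -0.03, -0.05 and -0.14. Median-of-ratios scaling moves every log2 ratio by -0.40 in germ cells, -0.15 in supporting cells, -0.02 in surface epithelium and 0.10 in interstitial cells, and the 3 calls in germ cells hold with it.

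**Figure D3:**
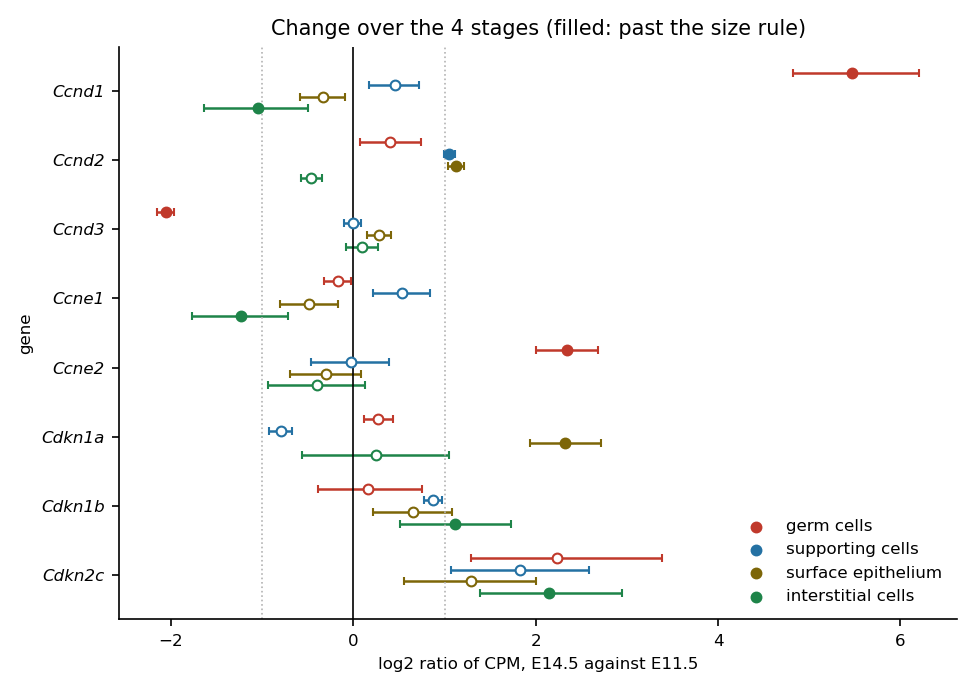
Log2 ratio of the level at E14.5 to that at E11.5 for each gene and class, with exact binomial 95% intervals; filled points passed the rule of size, open points did not, and dotted lines mark 2-fold. Ccnd1 at 5.47 and Ccnd3 at -2.06 in germ cells lie farthest out on each side.

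Set against supporting cells of the same library, germ cells were low in Ccnd2 and Cdkn1b and high in Ccne1 at all 4 stages, and these 3 differences were called at each stage. The log2 ratio of germ to supporting cells was -4.12, -5.21, -5.52 and -4.77 for Ccnd2 in stage order. For Cdkn1b it was -4.27, -5.03, -5.01 and -4.98, and for Ccne1 2.53, 2.31, 2.94 and 1.82. Ccnd1 crossed over, from -2.46 in the first library (too low in CPM for a call) through -1.95 and 0.64 to 2.56. The call at E12.5 was lost with class markers read at 5000 UMIs (-1.75), and E13.5 gained one as a mean over cells (1.08).

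At E11.5, 1 member was called higher in germ cells and 3 lower, where 15.2% of all genes tested were higher and 32.7% lower. At E12.5 it was again 1 and 3 (background 17.2% and 28.9%), and at E13.5 it was 1 and 2 (19.6% and 29.2%). At E14.5, 3 members were higher, Ccnd1, Ccne1 and Ccne2, and 3 were lower, Ccnd2, Ccnd3 and Cdkn1b, against 20.3% and 27.2%. The lower calls at E11.5 include Cdkn1a at -1.30, which was -0.83 and not called with median-of-ratios scaling, under which Ccnd3 was called higher there (1.06).

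Within the germ cells of 1 library, some of the members differed with the UMIs of meiosis genes, among them Ccnd1 and Ccnd3 in both of the last libraries. Stra8 is the gatekeeper of meiotic entry, Sycp3 a synaptonemal complex gene and Pou5f1 a pluripotency factor that germ cells lose in meiosis. At E13.5 the 350 germ cells without a Stra8 UMI held 13.1 CPM of Ccnd1 (10.9 to 15.6) and the 370 with one held 45.7 CPM (41.4 to 50.4). Ccnd3 was at 160 and 102 CPM in the same 2 sets. Ccne1 (56.4 and 59.8 CPM) and Ccne2 (11.8 and 10.7 CPM) had overlapping intervals. So at E13.5 Ccnd1 and Ccnd3 already differed along Stra8, and Ccne2 did not beyond counting error (log2 ratio -0.14, interval -0.55 to 0.26). Ccnd2 (0.65, 0.12 to 1.18) and Cdkn2c (1.47, 0.24 to 2.86) were higher with Stra8, though at low levels. Cdkn1a was lower with it (-0.31, -0.48 to -0.14). The low Cdkn1b of germ cells had a log2 ratio of 0.34, with an interval of -0.34 to 1.02. The median depth was 25961 UMIs in cells without Stra8 and 22793 in cells with it. With Stra8 read at 5000 UMIs in every cell, the levels were 19.6 and 52.5 CPM for Ccnd1 and 149 and 89.1 CPM for Ccnd3.

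At E14.5, 2185 of the 2279 germ cells had Stra8, and 94 did not. With Stra8 over without it, log2 ratios were 2.11 (1.72 to 2.53) for Ccnd1 and 2.01 (1.45 to 2.63) for Ccne2. They were -1.03 (-1.23 to -0.82) for Ccnd3 and -0.56 (-0.78 to -0.33) for Cdkn1a. Ccnd2 had the opposite sign to E13.5 (-0.60, -1.04 to -0.13), and -0.04 (-0.37 to 0.31) with Stra8 read at 5000 UMIs. Cdkn2c was higher with Stra8 read that way (1.33, 0.53 to 2.27). The intervals of Ccne1 and Cdkn1b included 0. The 289 cells without Sycp3 held 73.1 CPM of Ccnd1, the 1481 cells with Sycp3 and Pou5f1 held 122 CPM and the 509 with Sycp3 and no Pou5f1 held 107 CPM. Ccnd3 went down along the same 3 sets, at 80.4, 56.1 and 33.4 CPM. Ccne2 went up, at 11.1, 40.8 and 122 CPM (interval 114 to 130), a log2 ratio of 3.46 (3.08 to 3.87) between the last set and the first. Cdkn1a went down, at 81.9, 70.2 and 24.1 CPM, a log2 ratio of -1.76 (-2.03 to -1.5). For Cdkn1b the ratio was -0.28, with an interval of -1.02 to 0.46. Ccne1 was at 58.3 CPM in the first set and 40.7 CPM in the last (-0.52, -0.76 to -0.28). Ccnd2 (0.56, 0.14 to 1.00) and Cdkn2c (1.70, 0.92 to 2.55) were higher in the last set. With Sycp3 and Pou5f1 read at 5000 UMIs, these 3 ratios were -0.21 (-0.36 to -0.05), 0.16 (-0.12 to 0.43) and 1.14 (0.66 to 1.64). The Cdkn1a total of germ cells, which moved little over the stages, was thus the sum of cell sets with different levels in the E14.5 library.

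Other genes in these 3 sets bear on the values. Ints8, which overlaps Ccne2, was at 37.1, 50.4 and 62.7 CPM. Bysl, which overlaps Ccnd3, was at 29.4, 22.3 and 15.3 CPM and so went down as Ccnd3 did. In the E13.5 cells without and with Stra8, Bysl was at 37.5 and 24.7 CPM. Median depth was 17356, 15984 and 12991 UMIs, so cells listed without Pou5f1 were also the shallowest. With Sycp3 and Pou5f1 read at 5000 UMIs, Ccne2 was at 17.1 CPM without Sycp3 and 97.8 CPM with Sycp3 alone, and Cdkn1a at 80.3 and 41.2 CPM. Cells were sorted by other genes measured in the same cells, they are not replicates, and the intervals cover counting alone.

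**Figure D4:**
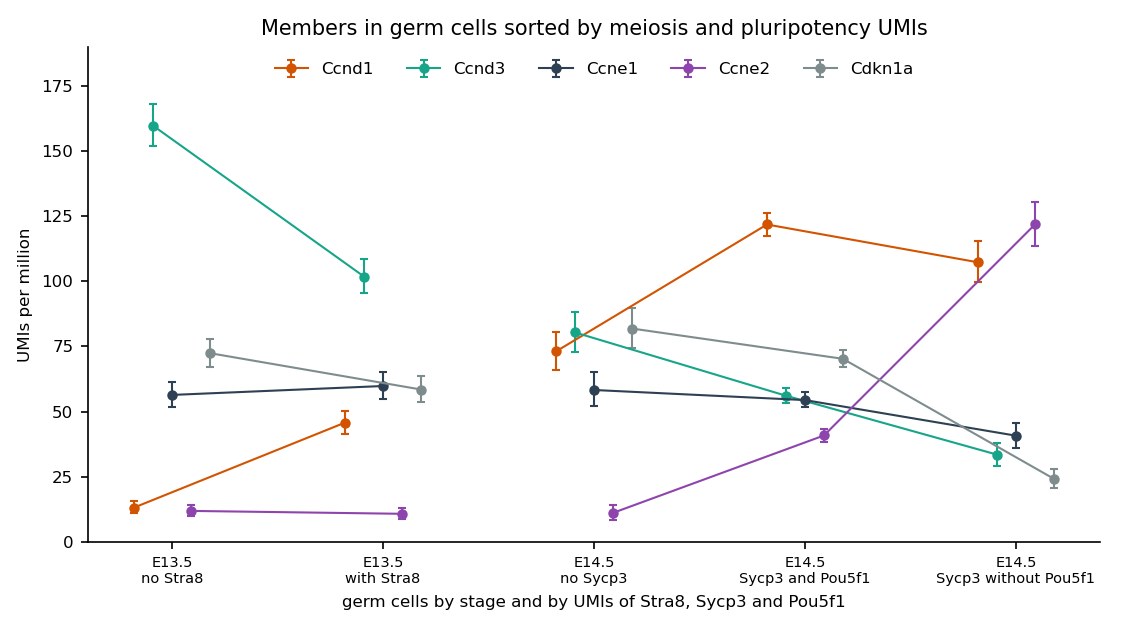
Level of 5 of the genes (CPM, linear axis from 0) in germ cells sorted by UMIs of Stra8 at E13.5 and of Sycp3 and Pou5f1 at E14.5, with exact Poisson 95% intervals. Ccne2 reaches 122 CPM in the E14.5 cells with Sycp3 and no Pou5f1, where Cdkn1a is at 24.1 CPM and Ccnd3 at 33.4 CPM.

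Cells with UMIs of both Mki67 and Top2a, genes of proliferating cells, were compared with cells with neither, read at 5000 UMIs per cell. Of the supporting cells 0.92% to 3.14% had both and 85.5% to 92.5% had neither, so the first set holds 16 to 58 cells per library. Those cells were also deeper, with medians of 14110 to 19925.5 UMIs against 9456.5 to 13692 in cells with neither. Cells with 1 of the 2 genes, 6.54% to 11.4% of supporting cells, lie near the limit and were left out. In germ cells 58.1% to 65.6% had exactly 1 of the genes, and at full depth 1, 3, 18 and 83 had neither, so no such comparison is read for them.

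In supporting cells both p27 and p21 transcripts were lower in the cells with Mki67 and Top2a. Cdkn1b was at 25.8, 64.6, 34.2 and 65.3 CPM in cells with both and 86.1, 189, 142 and 150 CPM in cells with neither. The log2 ratios were -1.74, -1.55, -2.05 and -1.2, and all 4 intervals lie below 0. Cdkn1a had ratios of -2.2, -1.33, -3.08 and -1.25, with all 4 intervals below 0 too. The value of -3.08, at E13.5, rests on 2 UMIs of Cdkn1a in 16 cells (interval -6.13 to -1.22), and it was -0.66 (-1.22 to -0.15) with Mki67 and Top2a read from all UMIs. Low Cdkn1a in these cells was not limited to supporting cells: its ratios were -0.72, -3.71, -1.18 and -1.43 in surface epithelium and -2.73, -0.72, -0.63 and -2.84 in interstitial cells, and 4 of these 8 intervals include 0. Cdkn1b showed the opposite sign in surface epithelium (0.35, 0.93, 1.77 and 0.28) and in interstitial cells (1.92, 0.38, 0.96 and 0.42), where 4 of the 8 intervals include 0. The difference between classes was not tested.

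Ccnd2 was lower in the cells with Mki67 and Top2a in all 3 somatic classes and all 4 libraries. Its log2 ratios were -0.80, -1.06, -1.33 and -0.77 in supporting cells, -0.94, -1.38, -0.93 and -1.33 in surface epithelium and -1.0, -1.01, -0.68 and -0.74 in interstitial cells, with no interval reaching 0. Cdkn2c was the reverse. In supporting cells it was at 14.9, 13.1, 30.8 and 36.9 CPM in cells with both and 0.406, 0.299, 0.208 and 1.08 CPM in cells with neither, with log2 ratios of 5.2, 5.45, 7.21 and 5.10. The ratios were 2.61 to 5.44 in surface epithelium and 2.37 to 4.59 in interstitial cells, with every interval above 0. The sizes of these ratios are uncertain, since the cells with neither gene held 11, 7, 4 and 7 UMIs of Cdkn2c in supporting cells and 1 to 5 in each library of the other 2 classes. The 5.44, for surface epithelium at E13.5, rests on 1 such UMI and has an interval of 2.63 to 10.88. The 2.37, for interstitial cells at E12.5, rests on 2 and has an interval of 0.30 to 5.53. With Mki67 and Top2a read from all UMIs, 5 of the 8 sets with neither gene in these 2 classes held 0 UMIs of Cdkn2c, so no ratio is given for them, and the interstitial value at E12.5 was 1.65 (-0.36 to 4.78). Ccne1 and Ccne2 had ratios on both sides of 0, and the largest were at E14.5 in supporting cells (2.62, 1.79 to 3.39, for Ccne1 and 2.02, 0.79 to 3.08, for Ccne2).

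**Figure D5:**
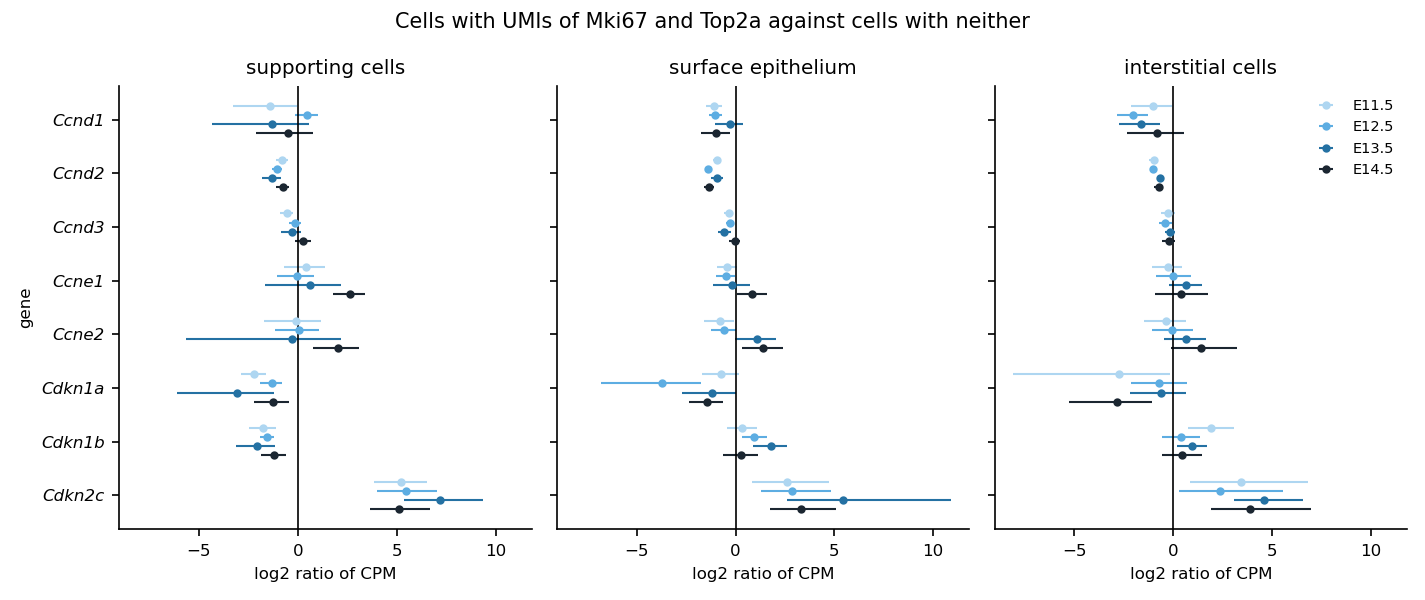
Log2 ratio of the level in cells with UMIs of both Mki67 and Top2a to that in cells with neither, by gene, somatic class and stage, with exact binomial 95% intervals. Cdkn2c lies right of 0 throughout (2.37 to 7.21), Ccnd2 lies left of 0 throughout, and Cdkn1b lies left in supporting cells only.

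The share of cells with a UMI was read after thinning every cell to 2000 UMIs, since depth differed between classes. For Ccnd1 in germ cells it was 0 of 233 in the first library (the limit that 3 cells set is 1.29%), then 1.31%, 6.94% and 21.1% (exact interval 19.4 to 22.8). Without thinning it was 6.87%, 12%, 41.0% and 74.1%. The meiotic gene Sycp1, which supporting cells should lack, was seen in at most 1.05% of thinned supporting cells. For Cdkn1b in supporting cells the thinned share was 14.2%, 28.9%, 22.5% and 22.3%, and without thinning 57.2%, 73.4%, 66.6% and 67.9%. In germ cells it was 0% to 1.64% thinned, and that of Kitl was 0.821% to 1.05%. Kitl had the higher level of the pair in supporting cells at every stage, so these shares are not alike and cannot tell Cdkn1b in germ cells from free RNA. How much of it was free RNA was not tested. Ccnd2 was in 1.15% to 3.00% of thinned germ cells and in 27.5% to 62.9% of thinned somatic cells.

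Of 53 other genes of the G1 machinery, 39 reached the minimums in germ cells, where 5 rose and 3 fell. Beside the 22.7% higher and 8.49% lower among all genes there, these counts are no more than the background share. Among those that rose were Cdkn2a, from 14.4 to 129 CPM (log2 ratio 3.16), and Cdkn2d, which encodes the INK4 protein p19, from 19.2 to 116 CPM (2.59). Counts of 3′ ends do not say which product of Cdkn2a the transcripts encode. All 3 of the 4 other inhibitors that reached the minimums rose. Rb1, the retinoblastoma gene, rose from 5.34 to 20.9 CPM (1.97). Cdk4, the kinase that D-type cyclins activate, fell from 555 to 133 CPM (-2.07). None of the 10 S-phase genes under E2F was called (median log2 ratio -0.20), and none of the 4 E2F and DP genes that reached the minimums was called.

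In supporting cells 3 of 36 rose (6.17% among all genes), Cdk6 from 15.1 to 52.9 CPM (1.81), Fbxw7, a ubiquitin ligase subunit that targets cyclin E, from 14.1 to 31.3 CPM (1.15) and the p53 target Phlda3 from 17.6 to 35.3 CPM (1.01). The mitotic cyclin Ccnb1 fell there from 52.7 to 24.9 CPM (-1.08), where 3.46% of all genes fell. In surface epithelium 1 of 35 rose, Cdkn1c, which encodes p57, from 653 to 1511 CPM (1.21), and E2f5 (-1.39) and Ccnb2 (-1.19) fell, beside 5.08% higher and 1.86% lower among all genes. In interstitial cells 1 of 36 fell, E2f5 (-1.07), and 0 rose, beside 3.52% lower and 3.82% higher among all genes. With so few calls, nothing is read from these counts about the list. As a whole the 53 genes had medians of -0.03 in germ cells, -0.11 in supporting cells, -0.34 in surface epithelium and -0.43 in interstitial cells, beside the medians over all genes given above. The list was written with results of these data known.

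Among 8176 genes, those whose pattern over the 16 sums was most like Ccne2 were Haus8, Cenpq and Commd1 (Pearson r 0.97, 0.95 and 0.92), and rank correlation named the same 3. The nearest to Ccnd2 were Pabpc4l, Col4a5 and Tshz2 (all 0.99). Cdkn1b was nearest to Sytl4, Ddit4l and Greb1 (0.98, 0.97 and 0.97) and Ccne1 to Lsm8, Anp32b and Pdlim1 (0.97, 0.96 and 0.96). Cdkn1a was nearest to Abhd11, Mmp15 and Mta3 (0.95, 0.94 and 0.93) and Cdkn2c to Cdc25b, Nfix and Mylk (0.94, 0.94 and 0.91). For Ccnd3 they were B4galt1, Tmem29 and Cfdp1 (0.91, 0.91 and 0.87), and for Ccnd1 they were Stard7, Hdac5 and Peli1 (0.90, 0.89 and 0.89). Sums of 1 library share its depth and its cells' free RNA, and rank correlation kept at least 2 of the 3 names for 2 of the 8 members, Ccne2 and Cdkn1a.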

How the data were processed

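The deposited table holds the authors' log-normalized values on a natural log scale, per cell: UMI counts divided by the cell's total, scaled to 10000 and passed through log(1 + x), as the values themselves show. Per the submitters' processing notes, reads were processed with Cell Ranger 2.2.0 and mm10; whether counting used the strand is not given in the sources used here. Undoing the log gave whole multiples of 1 UMI for 100% of the 69792436 values above 0 (relative tolerance 1e-06), so UMI counts were recovered for all 19387 cells, with no cell under 5407 UMIs.

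Cells above 20% mitochondrial UMIs (0 to 3 per library) and 94 to 119 further cells per library that Scrublet in scanpy 1.11.5 called as doublets were left out, which left 18970 cells, of which 13698 fell in 1 class. UMIs were summed per class and library. Depth was 69458291 to 80377418 UMIs per library. Intervals are exact Poisson (levels), exact binomial (ratios) and Clopper-Pearson (shares), all 95%. Python 3.11.15, numpy 2.4.6, scipy 1.17.1, pandas 2.3.3 and matplotlib 3.10.9 were used. Counts for germ cells at E14.5 against E11.5 were also simulated with counting error alone and no difference between embryos or libraries. The rule of size found 100% of 200 genes changed 4-fold. It called 0 unchanged genes, where 5262 genes, the changed ones among them, passed the minimums. A 4-fold change lies well past the 2-fold limit, so this checks the arithmetic only and says nothing of differences between libraries.

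The 8 genes and all lists were chosen with earlier results of these data known. Named genes were the 8 members, the 4 pathway genes with the largest called ratio in each class and the 3 genes nearest each member by Pearson r. Alternatives varied the cells kept, how classes and states were read, the scaling, the rule of size and the thinning.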

Additional observations from a re-analysis of the deposited data

Results flagged for a closer look

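Ccnd1 went in opposite directions in 2 classes between E11.5 and E14.5: its log2 ratio was 5.47 in germ cells and -1.05 in interstitial cells. With 1 library per stage, the difference between the classes was not tested. The interstitial value ranged from -1.33 to -0.34 over 6 alternatives and the germ cell value from 4.76 to 5.54.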

How the results depend on the processing

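No paired analysis was possible because each stage is 1 library. The count of members called between E11.5 and E14.5 in germ cells stayed at 3 with all 6 ways of choosing, weighing or scaling the cells. In supporting cells, where it was 1, it was 2 with cells of several classes kept, 2 with class markers read at 5000 UMIs, 0 with median-of-ratios scaling, 0 and 3 with a ratio of at least 4 and 1.5, and 2 with no minimum. In interstitial cells, where it was 4, it was 1 with cells of several classes kept, 1 with class markers read at 5000 UMIs and 1 with a ratio of at least 4. The Ccnd1 call of interstitial cells was also lost as a mean over cells (-0.88) and with median-of-ratios scaling (-0.95). In surface epithelium, where it was 2, it was 1 among cells with at least 10000 UMIs and 1 with a ratio of at least 4. The minimums also held back Cdkn2c in germ cells (log2 ratio 2.24) and in surface epithelium (1.29). In both classes it met the ratio and interval parts of the rule, so with no minimum it adds a call there. Shares over all genes are given for the main rule only, so counts under changed rules have no background beside them. The causes of the changes in these counts were not tested. The log2 ratio of Ccne2 in surface epithelium at E11.5 between cells with and without Mki67 and Top2a turned from -0.81 to 0.41 with status read from all UMIs. All 128 shares of cells moved without thinning, and 113 moved with thinning to 5000 UMIs. Of the other calls, Ccnd1 in supporting cells (1.17) and Cdkn1b in surface epithelium (1.09) were gained with cells of several classes kept, and Ccne2 in interstitial cells (-1.20) among the deep cells. Depth limits Cdkn2c, whose median level was 4.53 CPM.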

Other observations

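Cells that met no class rule were 1382, 902, 893 and 665 in stage order. At E14.5 these 665 cells held 94.6 CPM of Ccne1 (88.8 to 101), above the 27.9, 29.8 and 20.3 CPM of such cells at the earlier stages and above the germ cells of the same library (52.5 CPM). Their Ccnd1 level was 60.6, 70.3, 46.3 and 22 CPM in stage order, and their Cdkn2c level 6.94, 6.67, 9.27 and 21.6 CPM. Among the unclassified cells of E11.5, 154 had at least 2 of the endothelial markers Pecam1, Cdh5 and Kdr and held 208 CPM of Ccnd1 (191 to 226), more than any of the 4 classes at any stage.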
